A study of Saccharomyces cerevisiae with 30 samples.

Results

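The genes described here are the 38 listed nuclear genes of the yeast respiratory chain: the subunits of complexes II to V, both cytochromes c and a pair of NADH dehydrogenases. They were listed by name, with earlier results of these data known. Of the 38, 37 have a spot on the array, among 5547 genes in all. They comprise 9 genes of complex IV, 9 of complex III, 4 of complex II, 11 of complex V, 2 for cytochrome c and 2 for NADH dehydrogenases. The remaining gene, ATP18, was not analysed here.

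The respiratory chain of the inner mitochondrial membrane passes electrons from NADH and succinate to oxygen, and ATP synthase (complex V) uses the proton gradient that results. Budding yeast has no proton-pumping complex I. Single-subunit NADH dehydrogenases and succinate dehydrogenase (complex II) pass electrons through ubiquinone to the cytochrome bc1 complex (complex III), cytochrome c and cytochrome c oxidase (complex IV). Most subunits are encoded in the nucleus. Many of these genes are repressed while glucose is plentiful and are activated by the Hap2/3/4/5 complex, whose limiting subunit is Hap4, and some also by the heme-responsive factor Hap1. Cytochrome c and subunit 5 of complex IV each come in a pair of isoforms, of which CYC1 and COX5A are the aerobic forms and CYC7 and COX5B the forms associated with low oxygen.

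The study, on genome-wide regulation by the transcription complexes TFIID and SAGA in Saccharomyces cerevisiae, hybridised RNA of a test strain and of a reference strain together on 2-colour arrays. Cultures in CSM-Trp-His medium grew at 26 °C to an OD600 of 0.8, received an equal volume of heated medium, and were harvested after 45 min at 37 °C. Strains YKH100, YKH101, YJS7, YJS8 and YJS9 were set against YJS6, and strains YKH104, YKH106, YKH107, YKH108 and YKH109 against YKH105. YJS8 was also set against YJS6 in cultures that were kept at 26 °C. The labels and files do not state the genotypes of the strains. They also do not say whether replicate arrays came from separate cultures, and p-values therefore cover only the spread between these arrays, which may be technical. There were 2 test arrays per group, with the dyes exchanged, and 3 for YKH109. On 4 arrays YJS6 was set against itself, and on 3 arrays YKH105 was.

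The deposited columns for YKH100 replicate 2 and YJS8 replicate 2 hold identical values, so both were left out and each of these strains rests on 1 array here. On the repeated column GCN5 read -6.01, beside -4.96 on the other YKH100 array and 0.51 on the other YJS8 array, but arrays were placed by their labels alone. With the column counted as YKH100, 3 members were called in YKH100 in place of 1. All values below are log2 ratios minus the median of their array, so that 0 is the middle gene of that array, and a ratio shows a gene's standing among all transcripts and not its amount per cell. The direction of the ratio is not stated. It was read as likely test over reference, because GCN5 stood between -5.66 and -4.96 in the YKH100 and YKH101 arrays used and SPT3 between -8.96 and -7.51 in YKH104 and YKH107, against -0.12 to 0.27 for GCN5 and -0.07 to 0.29 for SPT3 on the self arrays. Large values of the other sign also occurred, with GCN5 at 2.42 to 3.39 in YJS7 and YJS9 and SPT3 at 1.01 and 1.85 in YKH108. The arrays held values for 5955 to 6388 of 6400 spots. Each member has 1 spot, and the number of arrays limits the precision. Over the self arrays, 246 of 259 member values lay within 0.5 of 0, with extremes of -0.76 and 0.70.

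Differences between strain and reference were tested with limma in 1 fit over 21 test arrays with a term for the dye, and a gene was called where its Benjamini-Hochberg adjusted p, taken over all genes tested in that group, was under 0.05. All 37 members were tested in every group. Of the members, 34 were called in at least 1 of the 11 groups, and COR1, COX8 and ATP1 in none. Counted over genes and groups, there were 82 calls of a higher level and 31 of a lower one. The shares of all genes called are given by group below.

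Among the strains set against YJS6, 1 of 37 members rose in YKH100 and none fell, beside 1.33% of all genes called (0.637% higher and 0.691% lower). In YKH101, 10 rose and 6 fell, which is 27% and 16.2% of the members beside 18.9% and 20.4% of all genes, or 39.3% in either direction. In YJS7, 4 rose and 4 fell, 10.8% of the members each way, beside 7.38% and 6.93% of all genes (14.3% in either direction). In YJS8, 7 rose and none fell, 18.9% of the members, beside 8.14% and 7.74% of all genes (15.9%). YJS9 had 7 higher and 14 lower members, or 18.9% and 37.8%, beside 20.9% and 23.1% of all genes (44.1%), and its median member stood at -0.34. No member was called in the YJS8 cultures kept at 26 °C, where 0.0182% of all genes were, all of them higher.

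Against YKH105, 7 members rose and none fell in YKH104, 18.9% of the members, beside 6.47% and 7.09% of all genes (13.6% in either direction). In YKH106, 1 rose, 2.7% of the members, beside 0.636% and 0.455% of all genes (1.09%). In YKH107, 15 rose and 3 fell, which at 48.6% of members is close to the 48.4% of all genes called. In YKH108, 13 rose and 1 fell (37.8% beside 37%), and in YKH109 17 rose and 3 fell (54.1% beside 52.8%). The share of members called in these 3 strains thus lay near the background, while its direction was uneven. Higher calls took 40.5%, 35.1% and 45.9% of members against 23.5%, 17% and 25.1% of all genes in YKH107, YKH108 and YKH109. Lower calls took 8.11%, 2.7% and 8.11% against 24.9%, 19.9% and 27.8%. The median member stood at 0.29, 0.22 and 0.30 in these strains.

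**Figure D1:**
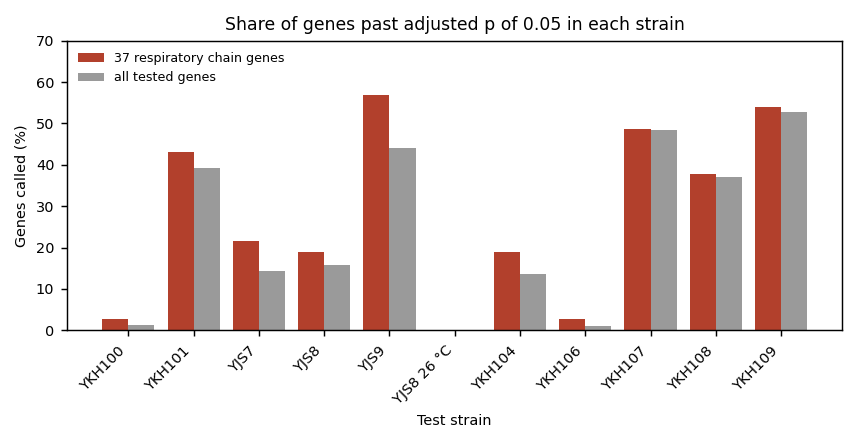
Percent of the 37 measured respiratory chain genes, and of all tested genes, called in either direction (limma, adjusted p under 0.05) in each strain and temperature group. The bars do not separate the directions. In YKH107, YKH108 and YKH109 the members' share of higher calls is 40.5%, 35.1% and 45.9%, beside 23.5%, 17% and 25.1% of all genes. It also lies above that of all genes in every other shifted strain but YJS9, for instance YKH104 (18.9% beside 6.47%) and YKH101 (27% beside 18.9%). The members' share of lower calls lies above that of all genes in YJS9 (37.8% beside 23.1%) and YJS7 (10.8% beside 6.93%).

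Centring bears on these directions. On the deposited scale, without centring, the median of all genes stood at -0.96 in YKH107, -0.89 in YKH109, -0.88 in YJS8, -0.70 in YKH108, -0.69 in YKH101 and -0.52 in YJS9. There, of the 82 higher calls, 37 had the opposite sign. None of the 31 lower calls did, but outside YJS7 (median 0.18) the negative medians left a lower call no room to turn its sign. The counts on that scale were 0 higher and 8 lower in YKH101, beside 2.13% and 31.1% of all genes (33.2% in either direction). They were 0 and 13 in YJS9 (3.49% and 22.6% of all genes, 26.1% in all) and 1 and 11 in YKH107 (0.563% and 53.4%, 54% in all). In YKH108 they were 0 and 2 (1% and 29.8%, 30.8% in all), in YKH109 3 and 16 (2.04% and 60.6%, 62.7% in all), and in the other 6 groups no member was called. Few genes of any kind were called in those groups, with 0.0182% to 0.462% of all genes in YJS7, YKH104, YKH106 and YJS8 at 26 °C. Every direction below is therefore relative to the array's median gene.

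**Figure D2:**
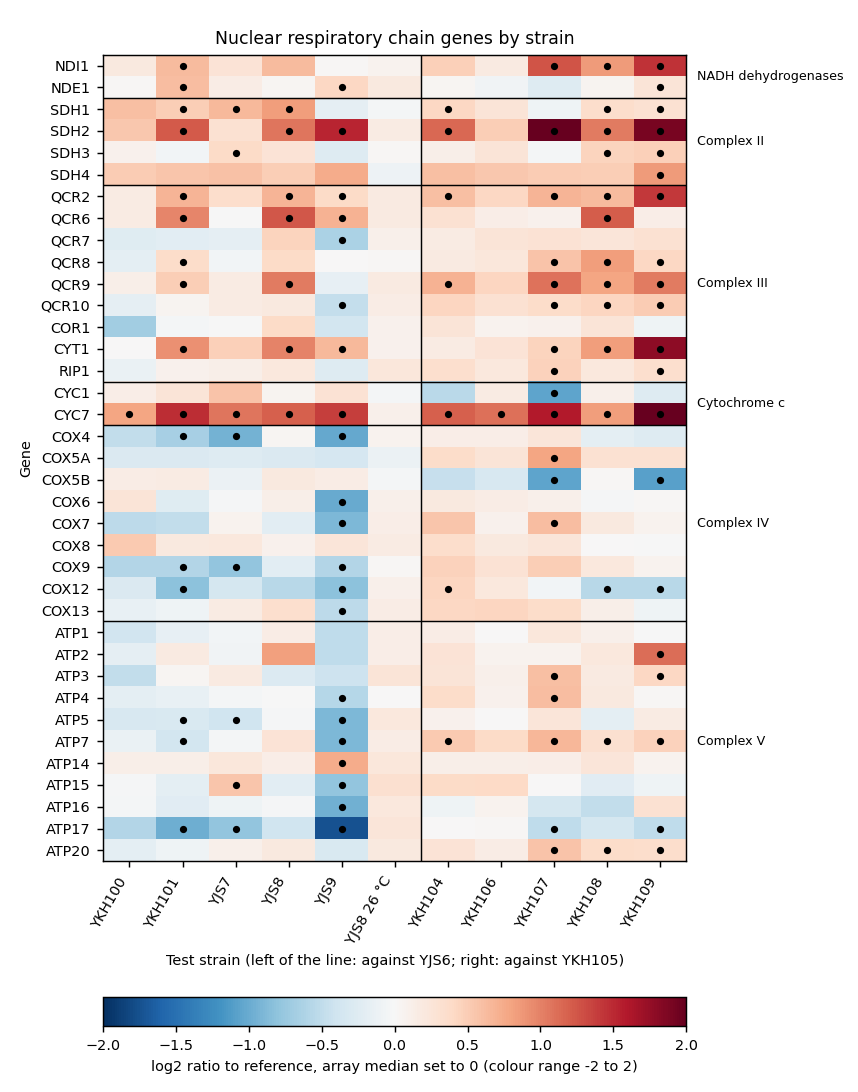
Fitted array-median-centred log2 ratio of each of the 37 members (grouped by complex) in each strain and temperature group, in colour, with dots at called values. CYC7 and SDH2 stand high across most shifted strains, and ATP17 reaches -1.75 in YJS9, where the medians of complexes IV and V are lowest.

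Electrons enter the chain at the NADH dehydrogenases. NDI1 (YML120C), which oxidises NADH inside the mitochondrion, read 1.36 and 1.15 in YKH107, 0.87 and 0.84 in YKH108 and 1.51, 1.26 and 1.51 in YKH109. It lay between -0.20 and 0.25 on the YKH105 self arrays, so that the groups did not overlap, but reached 0.68 on a YJS6 self array. NDI1 rose by 1.25 ± 0.17 (SE, n = 2; adjusted p = 9.52e-05) in YKH107, by 0.85 ± 0.17 (adjusted p = 0.00226) in YKH108 and by 1.44 ± 0.14 (n = 3; adjusted p = 5.78e-06) in YKH109, and kept that sign on the deposited scale. In YKH101 it rose by 0.64, a call that was lost without replicate 2 (0.43, adjusted p = 0.26), and it had the opposite sign on the deposited scale. NDE1, which oxidises cytosolic NADH at the outer face of the inner membrane, rose by 0.62 in YKH101, 0.41 in YJS9 and 0.26 in YKH109, each with the opposite sign on the deposited scale. The NDE1 call in YJS9 was lost without replicate 2 (0.24), and that in YKH109 without replicate 1 (0.28) or 3 (0.14).

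Complex II couples the oxidation of succinate in the TCA cycle to the reduction of ubiquinone. SDH2 (YLL041C), its iron-sulfur subunit, was called higher in 7 groups and kept a positive sign on the deposited scale in each. In the YJS6 set it read 1.20 and 1.24 in YKH101, 1.08 on the YJS8 array and 1.35 and 1.70 in YJS9, against -0.34 to 0.25 on the YJS6 self arrays. In the YKH105 set it read 1.34 and 0.96 in YKH104, 2.02 and 1.98 in YKH107, 1.16 and 0.92 in YKH108 and 1.90, 1.90 and 1.91 in YKH109, against 0.04 to 0.25 on the YKH105 self arrays. Every array of these 7 strains lay above every self array. The rise was largest in YKH107, at 2.0 ± 0.15 (n = 2; adjusted p = 1.62e-06), and in YKH109, at 1.90 ± 0.12 (n = 3; adjusted p = 2.62e-07). The call in YJS8 rests on its single array, and that in YKH104 (1.15) was lost without replicate 1 (0.94, adjusted p = 0.0635). SDH2 was not called in YKH100 (0.54), YJS7 (0.30) or YKH106 (0.50).

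The other complex II genes gave smaller values. SDH1 (YKL148C), the flavoprotein subunit, read 0.49 and 0.48 in YKH101, 0.46 and 0.84 in YJS7, 0.82 on the YJS8 array, 0.49 and 0.35 in YKH104, 0.14 and 0.56 in YKH108 and 0.40, 0.24 and 0.29 in YKH109. The YJS6 self arrays read 0.33, -0.20, 0.61 and 0.66, so that in that set only YJS7 and YJS8 had an array above them, while the YKH105 self arrays ran from -0.08 to 0.10, below all arrays of YKH104, YKH108 and YKH109. SDH1 was called higher in these 6 strains, with fitted values of 0.31 to 0.84, and had the opposite sign on the deposited scale in 4 of them. Apart from YJS8, which has 1 array, each of these calls was lost when 1 of the strain's arrays was left out, with values of 0.14 to 0.52. It stood at -0.18 in YJS9 and at -0.09 in YKH107, the strains in which SDH2 stood at 1.52 and 2.0. The membrane anchors SDH3 and SDH4 were called higher in 3 groups (YJS7, YKH108 and YKH109, between 0.38 and 0.48) and in YKH109 (0.85). The SDH3 calls were lost in YJS7 without replicate 2 (0.16) and in YKH108 without either array (0.47 and 0.41), and the SDH4 call without replicate 1 (0.83) or 3 (0.63). Of these 4 calls, 3 had the opposite sign on the deposited scale.

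Complex III passes electrons from ubiquinol to cytochrome c. Of its 9 genes, 5 were called higher in YKH101, 4 in YJS8, 2 in YKH104, 6 each in YKH107, YKH108 and YKH109, and 3 in YJS9, where 2 were lower. CYT1 (YOR065W), which encodes cytochrome c1, read 1.81, 1.68 and 1.78 in YKH109, 1.11 and 0.56 in YKH108, 0.53 and 0.37 in YKH107, 0.35 and -0.03 in YKH104 and 0.60 and -0.05 in YKH106. The 3 YKH109 arrays stood apart from all others of that set, while YKH104 and YKH106 overlapped the self arrays, which ran from -0.27 to 0.11. CYT1 rose by 1.79 ± 0.12 (adjusted p = 3.21e-07) in YKH109 and by 0.83 ± 0.15 (adjusted p = 0.00101) in YKH108. It also rose in YKH101 (0.92), YJS8 (1.0), YJS9 (0.65) and YKH107 (0.45), in the last with the opposite sign on the deposited scale. Its calls were lost in YKH108 without replicate 1 (0.62), in YJS9 without replicate 2 (0.51) and in YKH107 without either array (0.44 and 0.45).

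QCR2 (YPR191W), which encodes a core protein of complex III, read 1.48, 1.16 and 1.56 in YKH109 against -0.05 to 0.27 on the YKH105 self arrays. It rose there by 1.42 ± 0.11 (adjusted p = 1.32e-06). In the 6 other groups that called it, its fitted values were 0.68 in YKH101, 0.68 in YJS8, 0.38 in YJS9, 0.60 in YKH104, 0.69 in YKH107 and 0.63 in YKH108, and in 5 of the 7 its sign on the deposited scale was opposite. The calls in YJS9 (0.25 and 0.51) and YKH104 (0.52 and 0.69) were lost without either array, and that in YKH108 without replicate 1 (0.52). Its partner core gene COR1 stayed uncalled in all 11 groups, between -0.69 and 0.39.

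QCR6 (YFR033C), the acidic hinge subunit, differed widely among strains. It read 0.94 and 1.02 in YKH101, 1.22 on the YJS8 array, 0.78 and 0.62 in YJS9 and 1.12 and 1.31 in YKH108. In YJS7 it read 0.08 and -0.09, in YKH107 -0.02 and 0.19, and in YKH109 0.04, 0.31 and 0.09. The values were 0.13 in YKH100, 0.35 and 0.25 in YKH104 and -0.02 and 0.28 in YKH106, none of them called. The first 4 strains lay above all self arrays, which ran from -0.12 to 0.26, and the other 6 lay within that range except for 1 array each of YKH104, YKH106 and YKH109. QCR6 rose by 0.98 ± 0.11 (adjusted p = 4.35e-05) in YKH101, by 1.24 ± 0.17 (n = 1; adjusted p = 0.000612) in YJS8, by 0.70 ± 0.11 (adjusted p = 0.000418) in YJS9 and by 1.21 ± 0.11 (adjusted p = 2.47e-05) in YKH108, with the same sign on the deposited scale. Tested directly, QCR6 was higher in YKH108 than in YKH107 by 1.13 ± 0.16 (adjusted p = 0.000511) and lower in YKH109 than in YKH108 (-1.08 ± 0.15, adjusted p = 0.00121). It was likewise higher in YJS8 than in YJS7, by 1.24 ± 0.20 (adjusted p = 0.00481). The YJS8 values come from 1 array, whose spread is assumed to equal that of the other groups.

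QCR9 (YGR183C), a small subunit, read 0.84 and 0.55 in YKH104, 1.25 and 0.93 in YKH107, 0.80 and 0.77 in YKH108 and 0.70, 1.38 and 0.95 in YKH109, all above the YKH105 self arrays (-0.04 to 0.08). Its rise was 1.09 ± 0.16 (adjusted p = 0.000176) in YKH107 and 1.04 ± 0.13 (n = 3; adjusted p = 4.96e-05) in YKH109. In the YJS6 set it read 0.65 and 0.34 in YKH101 and 1.12 in YJS8, both called, but -0.01 and -0.33 in YJS9. Leaving out either array ended its calls in YKH101 (0.41 and 0.59) and YKH104 (0.62 and 0.78), and leaving out replicate 2 that in YKH108 (0.72). In YKH101 the sign on the deposited scale was opposite. Of the remaining complex III genes, QCR8 was called higher in 4 groups, QCR10 in 3 and RIP1, the Rieske iron-sulfur protein, in 2, all at 0.83 or less, and 8 of these 9 rises had the opposite sign on the deposited scale. QCR7 (-0.63) and QCR10 (-0.48) fell in YJS9, but neither was called once either YJS9 array was left out.

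**Figure D3:**
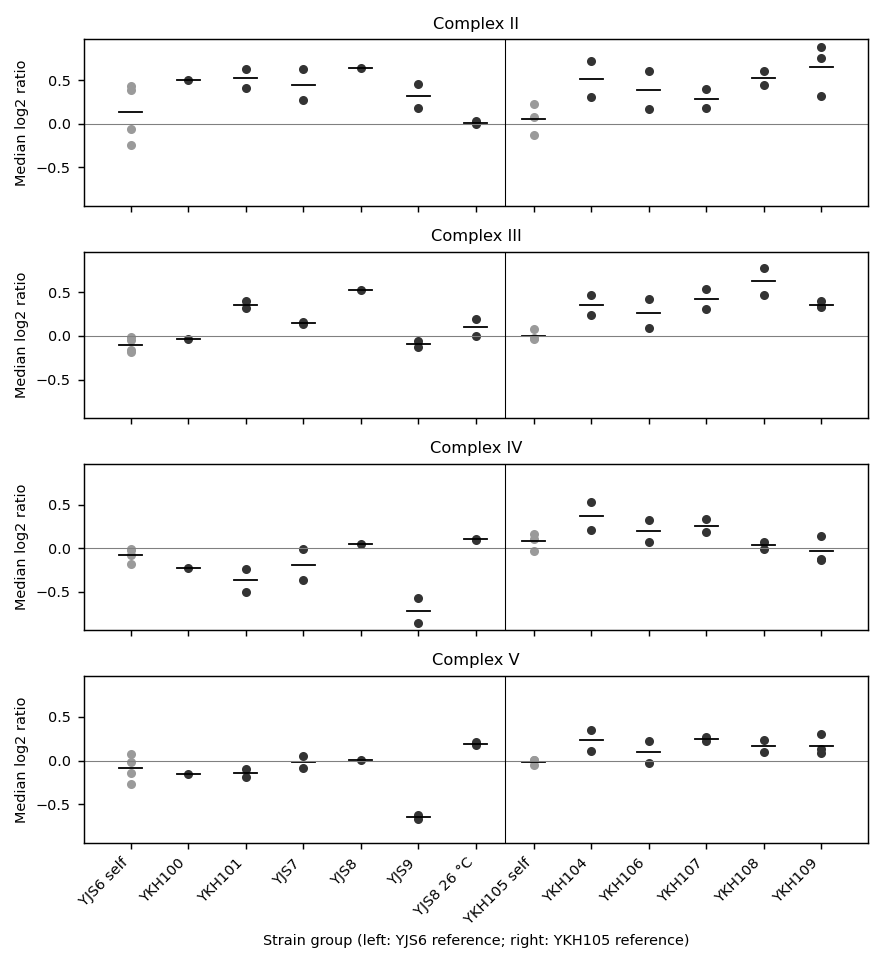
Median array-centred log2 ratio of the genes of complexes II to V on each test and self array, by group, with 1 point per array. By the medians of the fitted values, complex III stands above complex IV in YKH101 (0.36 against -0.30), YJS9 (-0.17 against -0.58), YKH108 (0.63 against 0.02) and YKH109 (0.41 against -0.01), and the 2 lie close together in YKH104 (0.30 and 0.37).

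Complexes III and IV are consecutive in the chain. On the same array, the median complex III gene minus the median complex IV gene was between -0.19 and 0.00 on the 7 self arrays. It was 0.90 and 0.56 in YKH101, 0.80 and 0.45 in YJS9, 0.79 and 0.40 in YKH108, and 0.48, 0.45 and 0.26 in YKH109. It was 0.48 on the YJS8 array, 0.51 and 0.18 in YJS7, 0.20 in YKH100, 0.21 and 0.13 in YKH107, 0.11 and 0.02 in YKH106 and -0.06 and 0.03 in YKH104. All shifted arrays but 1 of YKH104 thus lay above the self arrays, by amounts that overlapped between strains. In the YJS8 cultures kept at 26 °C the difference was 0.09 and -0.09. The YKH106 array at 0.02 and the YKH104 array at 0.03 lay below the higher of these, and only narrowly above the self arrays. Since both medians come from 1 array, this difference does not depend on the centring.

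Cytochrome c carries electrons from complex III to complex IV. CYC7 (YEL039C), the minor isoform, was called higher in all 10 strains harvested after the shift to 37 °C, more groups than any other member, and in none of them did its sign turn on the deposited scale. Against YJS6 it read 0.73 in YKH100, 1.52 and 1.45 in YKH101, 0.95 and 1.20 in YJS7, 1.15 in YJS8 and 1.37 and 1.39 in YJS9. Against YKH105 it read 1.18 and 1.21 in YKH104, 1.02 and 1.19 in YKH106, 1.54 and 1.62 in YKH107, 0.81 and 0.87 in YKH108 and 2.26, 2.68 and 2.35 in YKH109. Each of these values exceeded the highest self array, which was 0.27 for YJS6 and 0.55 for YKH105. In the YJS8 cultures kept at 26 °C it read 0.05 and 0.15 and lay within the self range.

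The fitted rise of CYC7 was largest in YKH109, at 2.41 ± 0.09 (n = 3; adjusted p = 1.5e-08), and of the called values the one in YKH100 was smallest, at 0.78 ± 0.15 (n = 1; adjusted p = 0.0273). The YKH100 call was lost without the dye term (0.73), with self arrays added (0.79) and with arrays of the same reference only (0.77). It was 1.11 ± 0.10 (n = 2; adjusted p = 0.000852) in YKH106, where CYC7 was the only member called, and 0.345% of all tested genes stood higher. In YKH108, where it rose by 0.84 ± 0.10 (adjusted p = 9.92e-05), 6.82% of genes stood higher. Compared directly, CYC7 was higher in YKH109 than in YKH108 by 1.57 ± 0.13 (adjusted p = 5.91e-05), than in YKH106 by 1.31 ± 0.13 (adjusted p = 6.86e-05) and than in YKH107 by 0.83 ± 0.13 (adjusted p = 0.00178). On the deposited scale its values ran from 0.16 in YKH108 to 1.51 in YKH109, and the test was passed there in YKH109 alone.

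CYC1 (YJR048W), the major isoform, did not follow CYC7. It read -0.94 and -1.16 in YKH107, -0.34 and -0.74 in YKH104 and -0.12, -0.54 and -0.11 in YKH109, against 0.01 to 0.31 on the YKH105 self arrays. All 3 strains lay below the self arrays, but only the difference in YKH107 was called (-1.05 ± 0.21, adjusted p = 0.00144). In YKH104 the fitted value was -0.54 (adjusted p = 0.118) and in YKH109 -0.25 (adjusted p = 0.239). Compared directly, CYC1 was lower in YKH107 than in YKH106 (-1.22 ± 0.30, adjusted p = 0.0104) and higher in YKH108 than in YKH107 by 1.16 ± 0.30 (adjusted p = 0.0184). Against YJS6 no strain passed the test, with fitted values from 0.05 to 0.57 in the shifted cultures. CYC1 and CYC7 are related in sequence, and how far their spots separate the transcripts is not stated.

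Complex IV reduces oxygen. Its subunit 5 isoforms moved in opposite directions in 1 strain. COX5B (YIL111W) read -0.87 and -1.25 in YKH107 and -0.73, -1.33 and -1.36 in YKH109, below the YKH105 self arrays at -0.37 to -0.07. It fell by 1.06 on the log2 scale in YKH107 (SE 0.15, adjusted p = 0.000118) and by 1.08 in YKH109 (SE 0.12, adjusted p = 1.94e-05). It was also below on the deposited scale, where the median gene of both strains is itself negative and a fall could not turn its sign. In YKH108 it read -0.04 and 0.08, and the differences of YKH107 and YKH109 from YKH108 were both called.

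COX5A (YNL052W) read 0.90 and 0.66 in YKH107, while the YKH105 self arrays read 0.67, 0.13 and 0.11, so that these groups overlapped. It was called in YKH107 (0.78 ± 0.18, adjusted p = 0.00321). That call was lost without replicate 1 (0.60, adjusted p = 0.109), and the value was -0.18 on the deposited scale. COX5A minus COX5B on the same array was 1.77 and 1.92 in YKH107 and 1.24, 1.47 and 1.66 in YKH109, against 1.03, 0.20 and 0.28 on the self arrays. In the strains set against YJS6 neither isoform was called. COX5A and COX5B are also related in sequence, and the labels and files do not say how far their spots separate the transcripts.

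**Figure D4:**
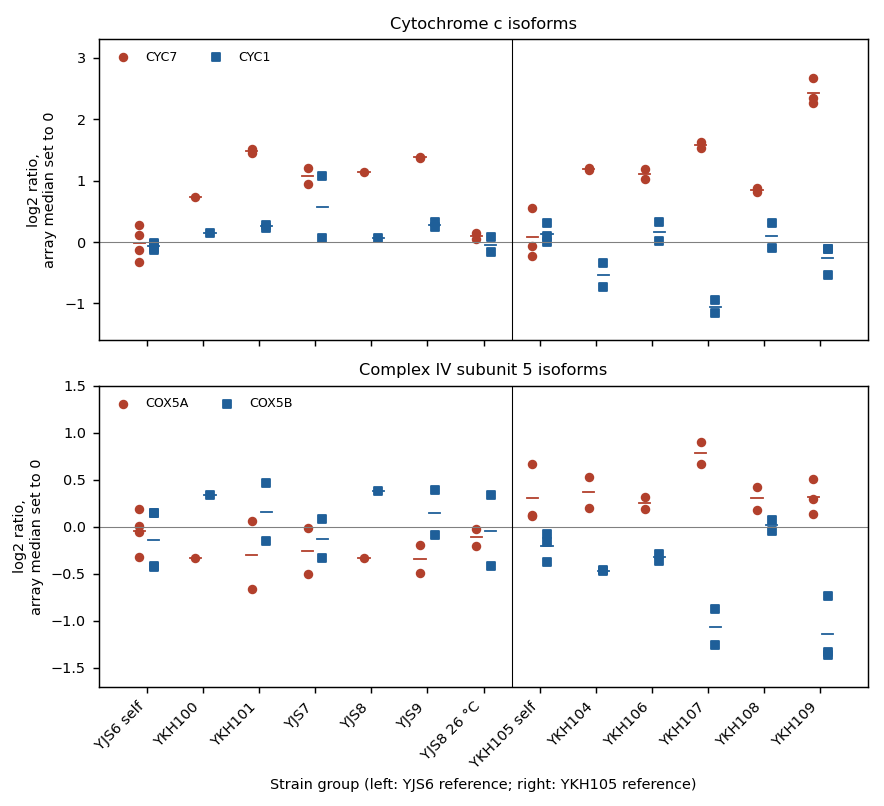
Array-centred log2 ratios of CYC7, CYC1, COX5A and COX5B on each test and self array, by group, with 1 point per array. CYC7 lies above the self arrays in all 10 shifted strains, from 0.73 to 2.68, while CYC1 and COX5B reach -1.16 and -1.25 in YKH107.

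The other complex IV genes were mostly lower where they were called. In YJS9, 6 of 9 fell. COX6 (YHR051W) read -0.96 and -1.05 there and fell by 1.01 on the log2 scale (SE 0.11, adjusted p = 1.65e-05), while the YJS6 self arrays ran from -0.68 to 0.03. COX4 (YGL187C) read -0.94 and -1.10 in YJS9, -0.55 and -0.79 in YKH101 and -0.41 and -1.48 in YJS7, and was called in all 3, although a YJS6 self array read -0.76. The YJS7 call of COX4 (-0.94 ± 0.15, adjusted p = 0.00307) was lost without replicate 2 (-0.48, adjusted p = 0.0507), and the YKH101 call without either array (-0.68 and -0.66).

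COX12 fell in YKH101 (-0.82), YJS9 (-0.82), YKH108 (-0.55) and YKH109 (-0.56) and rose in YKH104 (0.43), the last only with both arrays (0.28 and 0.58 with 1). The YKH108 call was lost without replicate 1 (-0.36). COX9 fell in YKH101, YJS7 and YJS9, between -0.79 and -0.58, and COX13 in YJS9 (-0.52). The COX9 calls were lost without replicate 1 in YKH101 (-0.24) and YJS9 (-0.31) and without either array in YJS7, and the COX13 and COX7 calls in YJS9 without either array. COX7 fell in YJS9 (-0.90) and rose in YKH107 (0.61), the rise with the opposite sign on the deposited scale and lost when either array was left out. COX8 stayed between -0.01 and 0.53 and was called nowhere.

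Complex V makes ATP from the proton gradient. ATP17 (YDR377W), a subunit of its membrane sector, was called lower in 5 groups, more than any other member. It read -1.99 and -1.51 in YJS9, -1.16 and -0.80 in YKH101, -1.04 and -0.55 in YJS7, -0.37 and -0.63 in YKH107 and -0.72, -0.60 and -0.15 in YKH109. The YJS6 self arrays read -0.39 to -0.25 and the YKH105 self arrays -0.05 to -0.01, so that no array of these 5 strains overlapped its own self arrays. The value in YJS9 was the lowest of any member in any group, at -1.75 ± 0.19 (adjusted p = 1.93e-05). The calls in YKH107 (-0.29 and -0.71) and YJS7 (-1.0 and -0.59) were lost when either array was left out, that in YKH101 without replicate 1 (-0.85) and that in YKH109 without replicate 1 (-0.42) or 2 (-0.44).

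In YJS9, 6 of the 11 complex V genes fell, and they lie in both sectors of the enzyme. They were ATP17, the central-stalk subunits ATP15 (-0.79) and ATP16 (-0.96), and the peripheral-stalk subunits ATP4 (-0.57) and ATP7 (-0.90). The last was ATP5 (-0.90), which links the catalytic head and the peripheral stalk. ATP1 (-0.50) and ATP2 (-0.51), of the catalytic head, were not called in YJS9. ATP14, another peripheral-stalk subunit, read 0.90 and 0.59 in YJS9 and rose by 0.75 ± 0.15 (adjusted p = 0.00137). The ATP16 and ATP4 calls were lost when either YJS9 array was left out. With a term for the array-number series added, 8 of the 21 calls in YJS9 were lost, those of ATP4, ATP16, COX7, COX9, COX13, QCR7, QCR10 and NDE1, and the median member stood at -0.15.

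ATP7 (YKL016C) was called in opposite directions in different strains. It read -0.81 and -0.99 in YJS9 and -0.04 and -0.70 in YKH101, but 0.70 and 0.35 in YKH104, 0.81 and 0.52 in YKH107, 0.43 and 0.21 in YKH108 and 0.45, 0.46 and 0.33 in YKH109. The YKH105 self arrays read 0.10 to 0.17, below all of the latter. Its rise was 0.67 ± 0.11 (adjusted p = 0.000431) in YKH107, and the rises in YKH107, YKH108 and YKH109 had the opposite sign on the deposited scale. ATP20 and ATP3 behaved alike in this respect, with higher calls in 3 groups and 2 groups, all of the opposite sign there. The calls of ATP7 in YKH104 (0.47 and 0.58) and YKH108 (0.31 and 0.33) were lost without either array, and that in YKH101 without replicate 2 (-0.14). The fall of ATP7 in YJS9 was -0.90 ± 0.11 (adjusted p = 5.34e-05).

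ATP2, the catalytic beta subunit, was called higher in YKH109 (1.11 ± 0.25, adjusted p = 0.0027), where its arrays read 0.53, 2.28 and 0.62. Replicate 2, which stands far above the other two, is also the array with the fewest spots, 5955. Without it the value was 0.57, still called. ATP1, the alpha subunit, stayed between -0.50 and 0.22 and was called nowhere.

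Strains that share a reference were also compared with each other in the same fit, 20 pairs in all. They gave 76 calls of members, 39 higher and 37 lower, directions that follow the order in which each pair was set. The share of members called in a pair ran from 0% to 32.4%, and that of all genes from 0.13% to 26.3%. On the deposited scale there were 36, all lower, so that each higher call between 2 strains printed here or above was lost there. The calls were most numerous for YJS9 against YJS7, with 2 members higher and 10 lower (5.41% and 27% of members beside 9.03% and 8.99% of all genes, or 32.4% beside 18% in either direction). SDH2 was higher in YJS9 by 1.22 ± 0.21 (adjusted p = 0.00265), and ATP15 was lower (-1.35 ± 0.19, adjusted p = 0.000772), as were COX6, COX7, ATP17, ATP7 and SDH1, between -0.98 and -0.82. Against YJS8, 7 members were lower in YJS9 and none higher (18.9% beside 2.71% lower and 3.43% higher, 6.14% in all), with COX6 at -1.12 and ATP7 at -1.18. In the pair of YJS9 and YJS8, strain and array-number series coincide. Both YJS9 arrays are late in the numbering (193 and 176), and the YJS8 array used is early (45). Between YJS9 and YKH101 only COX6 was called, at -0.77 ± 0.15 in YJS9 (adjusted p = 0.022, 2.7% of members beside 2.5% of genes).

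In the YKH105 set, YKH109 exceeded YKH107 in 4 members (10.8% beside 10.9% of genes), of which CYT1 differed most, by 1.34 ± 0.19 (adjusted p = 0.00076). YKH109 differed from YKH108 in 6 members (16.2% beside 5.1%): CYC7, CYT1, SDH2 and QCR2 were higher, and COX5B and QCR6 lower. SDH2 was higher in YKH107 than in YKH106 by 1.5 ± 0.21 (adjusted p = 0.000602), as 1 of 5 members called in that pair (13.5% beside 26.3%). No member was called between YKH106 and YKH104, where 0.164% of all genes were, or between YJS8 and YKH101, where 0.859% were.

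For YJS8 the shift itself could be compared with cultures kept at 26 °C, each against YJS6 treated alike. CYC7 (1.10 ± 0.18, adjusted p = 0.0051), QCR6 (1.05 ± 0.20, adjusted p = 0.00923) and SDH1 (0.88 ± 0.22, adjusted p = 0.031) were higher relative to YJS6 after the shift, which is 8.11% of members beside 7.55% of all genes. On the 26 °C arrays QCR6 read 0.24 and 0.13 and SDH1 0.03 and -0.10, against 1.22 and 0.82 on the shifted array. The shifted side is a single array, the 26 °C arrays correlated at -0.44 over all spots with the dyes exchanged, and none of the 3 was called on the deposited scale. The SDH1 call was lost without either 26 °C array (0.98 and 0.79) and the QCR6 call without replicate 2 (0.98, adjusted p = 0.0509).

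HAP4, the limiting subunit of the activator of these genes, rose in YKH101 by 1.90 ± 0.15 (adjusted p = 2.76e-06), in YJS9 by 1.72 ± 0.15 (adjusted p = 4.17e-06), in YKH108 by 1.23 ± 0.15 (adjusted p = 8.87e-05) and in YJS8 by 0.87 ± 0.22 (adjusted p = 0.0187). It was lower in YKH104 (-0.73), YKH106 (-0.76) and YKH107 (-0.51), each called. On the deposited scale it stood at 1.21 in YKH101 and in YJS9, 0.54 in YKH108, -0.01 in YJS8 and -1.48 in YKH107. Where HAP4 was called higher, 10 members were higher and 6 lower in YKH101, and 7 and 14 in YJS9. In YKH108 they were 13 and 1, and in YJS8 7 and 0. Where HAP4 was called lower, they were 7 and 0 in YKH104, 1 and 0 in YKH106 and 15 and 3 in YKH107. The shares of all genes called in each strain are given above. HAP1 rose in YKH101 (0.68), YJS9 (1.09) and YKH107 (0.61), HAP2 in YKH101, YKH107, YKH108 and YKH109, between 0.37 and 0.64, and HAP5 in YKH101 (0.55) and YKH109 (0.40), all except HAP1 in YJS9 with the opposite sign on the deposited scale. HAP3 was called in no group. ROX1, the repressor of hypoxic genes such as COX5B, rose in YKH101 (1.31) and YKH108 (1.45). Any part of these factors in the members' values was not tested.

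Other genes of mitochondrial respiration were counted from fixed lists. Where a share is printed, that of all genes called the same way stands beside it. For the other counts, the shares of all genes in each group are those given above. The TCA cycle list leaves out complex II but holds CIT2, MDH2 and MDH3, isoenzymes that act outside the mitochondrion. Of its 15 tested genes, 10 rose in each of YKH101, YJS9, YKH108 and YKH109 (66.7%, beside 18.9%, 20.9%, 17% and 25.1% of all genes). In that order 1, 2, 2 and 2 fell. CIT2 and MDH2 were among the rises in each of these strains, and MDH3 was among the falls. The medians of the list were 0.97, 1.06, 1.20 and 1.16. On the deposited scale the calls were 5 higher and 2 lower, 5 and 3, 2 and 3, and 6 and 4 in that order, with medians of 0.28, 0.55, 0.51 and 0.25. In YJS8, on its single array, 9 rose (60% beside 8.14%) and 1 fell, with a median of 1.18, and none was called on the deposited scale. In YKH107, 5 rose (33.3% beside 23.5%) and 3 fell. On the deposited scale 1 was higher and 5 lower there, beside 0.563% and 53.4% of all genes, with a median of -0.74. Of the 5 rises, 2 had the opposite sign on that scale. CIT1, mitochondrial citrate synthase, rose by 2.91 ± 0.13 in YKH109, and LSC2, a succinyl-CoA ligase subunit, stood at -2.03 ± 0.17 in YKH107. In YJS9 the median gene of this list stood at 1.06 and the median complex IV gene at -0.58.

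Of 68 mitochondrial ribosomal protein genes, 45 rose and 1 fell in YKH107 (66.2% higher beside 23.5% of all genes, median 0.61), and 38 rose and 1 fell in YKH109 (55.9% beside 25.1%, median 0.45). In YJS9, 9 rose and 3 fell, and the 13.2% higher lay below the 20.9% of all genes. Of these rises, 32 of the 45, 30 of the 38 and 3 of the 9 had the opposite sign on the deposited scale. The higher share also exceeded that of all genes in YKH101 (32.4% beside 18.9%), YKH108 (33.8% beside 17%), YKH104 (25% beside 6.47%) and YJS7 (20.6% beside 7.38%). None of these genes was called higher in those strains on the deposited scale.

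Heme is the prosthetic group of complexes III and IV and of cytochrome c. Of 11 genes for its synthesis and attachment, 8 fell and 2 rose in YKH107 (72.7% lower beside 24.9% of all genes, median -0.73), 6 fell and 2 rose in YKH109 (54.5% beside 27.8%), and 5 fell and none rose in YJS9 (45.5% beside 23.1%). In YKH108, 5 fell and 1 rose (45.5% lower beside 19.9%). The lower share was 27.3% beside 7.74% in YJS8 and 18.2% beside 6.93% in YJS7. HEM12 and HEM15, which act late in the synthesis, stood at -1.84 ± 0.27 and -1.61 ± 0.24 in YKH109, whereas CYT2, the lyase that attaches heme to cytochrome c1, rose in YKH107 (0.57) and YKH109 (0.41) on the centred scale only, with the opposite sign on the deposited one. Of 22 complex IV assembly and translation factors, 8 rose and 2 fell in YKH109 (36.4% higher beside 25.1% of all genes). In YKH107, 6 rose and 3 fell (27.3% beside 23.5%), with PET122 at -1.04. In YKH104, 6 rose and 0 fell (27.3% beside 6.47%). On the deposited scale no YKH104 rise turned its sign, but none was called. Of 9 complex III factors, 7 rose in YKH109 (77.8% beside 25.1%) and 5 in YKH107 (55.6% beside 23.5%), where CBP3 rose by 1.18 and CBP4 stood at -1.03. Of 12 complex V factors, 5 each rose in YKH107, YKH108 and YKH109 (41.7%, beside 23.5%, 17% and 25.1%) and none fell. Of 3 complex II factors 2 rose in YKH109 (66.7% beside 25.1%), with SDH5 at 1.02. Among the rises of these factors in YKH109, the sign on the deposited scale was opposite for 5 of the 8, 6 of the 7, 4 of the 5 and 1 of the 2, and for those in YKH107 for 4 of the 6, 3 of the 5 and 4 of the 5.

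Of 9 ubiquinone synthesis genes, 4 each rose in YKH107 and YKH109 (44.4%, beside 23.5% and 25.1%), with COQ4 at 0.93 in the latter, all with the opposite sign on the deposited scale. In YKH104, 3 rose and 0 fell (33.3% beside 6.47%), and these rises kept their sign there but were not called. Of 5 other dehydrogenases that feed the chain, 3 rose and 1 fell in each of YJS7, YJS9, YKH108 and YKH109. These are 60% higher and 20% lower, beside 7.38% and 6.93% of all genes in YJS7 and 20.9% and 23.1% in YJS9. In YKH108 the shares of all genes were 17% and 19.9%, and in YKH109 25.1% and 27.8%. The one that fell was DLD2, at -0.68 ± 0.11 in YJS9. GUT2, the mitochondrial glycerol-3-phosphate dehydrogenase, rose by 1.68 ± 0.22 in YJS9, where it was also the only one of the 5 called higher on the deposited scale in these 4 strains. The ATP synthase inhibitor INH1 and STF2, the 2 further complex V genes tested, were called in opposite directions. INH1 fell in YJS9 (-1.82 ± 0.16), YKH101 (-1.09 ± 0.16), YKH108 (-0.60), YKH109 (-0.50) and YKH107 (-0.46), while STF2 rose in YKH101 (1.61 ± 0.46), YKH108 (1.36 ± 0.46) and YKH109 (1.20), the rises not called on the deposited scale. Of 6 carrier and porin genes, 2 rose (33.3% beside 25.1%) and 1 fell (16.7% beside 27.8%) in YKH109. In YKH108, 1 rose (16.7% beside 17%) and 2 fell (33.3% beside 19.9%), and in YJS9 2 fell (33.3% beside 23.1%). POR1, the major porin, rose by 1.23 ± 0.15 in YKH109 (0.33 on the deposited scale), AAC3, a minor ADP/ATP carrier, stood at -5.21 ± 1.0 in YKH108, and PET9, the major one, at 3.01 ± 0.41 in YJS8 (1 array).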

How the data were processed

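RNA of 2 strains was hybridised on each of 30 arrays. Images came from a GenePix 4000A scanner and GenePix Pro 4.0, per the labels' protocols. The deposited values are log2 ratios made by the authors, and the labels and files do not state how they were normalized. Of 6400 spots, 5578 have 1 gene in the platform annotation, 0 several and 822 none. Each array was centred on its median. No sign was turned: GCN5 and SPT3 have 1 sign in both dye orientations of the strains named above, so the deposited ratios were taken to run 1 way on all arrays. Genes with a value in both dye orientations and on at least 18 of 21 arrays were fitted with limma 3.58.1 in R 4.3.3 (lmFit, eBayes), with 1 term per group and 1 for dye, leaving 9 residual degrees of freedom, for 5519 genes. Adjusted p-values are Benjamini-Hochberg over all genes tested, with a threshold of 0.05, and the procedure was tested on simulated data. In the YKH105 set, array-number series and dye coincide and cannot be told apart. YJS9 is the only group with all its arrays late in the numbering (193 and 176). The YJS8 and YKH100 arrays used are early (45 and 44), so strain and series coincide between YJS9 and either strain.

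The named members are all those measured. Array values are given for both isoform pairs, for the 2 highest and 2 lowest called members of a group, and for members called in at least 6 groups. Those of NDI1, QCR6 and other members beyond that rule were chosen after their values were seen. The difference between the complex III and complex IV medians was not planned in advance. Apart from MDH2, MDH3, ROX1 and the HAP genes, the other lists name at most their 2 highest and 2 lowest called genes. The members and lists were chosen with earlier results of these data known. Promoter and protein sequences were not used here. Alternatives tried were the deposited scale, the identical columns kept, other dye and series terms, single-reference fits, self arrays added, other gene filters, robust eBayes, and arrays left out in turn.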

Additional observations from a re-analysis of the deposited data

Results flagged for a closer look

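For 3 members the difference from YJS6 in YJS8 was tested to be larger after the shift to 37 °C than at 26 °C (limma, adjusted p under 0.05): QCR6 by 1.05, CYC7 by 1.10 and SDH1 by 0.88 on the log2 scale, with 1 shifted array against 2 unshifted ones.

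The column deposited with identical values for YKH100 and YJS8 entered no comparison. On it, 3 members stood more than 0.5 from 0 and at over 2 times the size of the largest YJS6 self value. COX8 stood at 0.57, where the self arrays read 0.19, -0.04, 0.02 and -0.18. CYC7 stood at 0.74, beside self values of -0.32 to 0.28. ATP7 stood at -0.56, beside self values of -0.27 to 0.23. GCN5 read -6.01 on this column, beside -4.96 on the other YKH100 array and 0.51 on the other YJS8 array. No array was assigned to a strain from its values.

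Of the 37 members, none had a YJS6 self array that stood apart from the other 3 by Dixon's criterion for 4 values.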

How the results depend on the processing

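The scale mattered most. On the deposited scale the counts of members called were 0 in YKH100, 8 in YKH101, 0 in YJS7, 0 in YJS8, 13 in YJS9, 0 in YKH104, 0 in YKH106, 2 in YKH108, 0 between temperatures and 36 (all lower) over the 20 strain pairs. In the strains with 0, few genes of any kind were called on that scale, as stated with the results. Of 116 single calls followed, 30 were kept there, 49 no longer passed and 37 had the opposite sign. The latter were, in YKH101, QCR2 (-0.004), QCR9 (-0.19), SDH1 (-0.20), NDE1 (-0.068), NDI1 (-0.051) and QCR8 (-0.33); in YJS8, QCR2 (-0.19) and SDH1 (-0.035); in YJS9, QCR2 (-0.13) and NDE1 (-0.095). In YKH107 they were ATP7 (-0.29), COX5A (-0.18), CYT1 (-0.51), QCR2 (-0.27), ATP20 (-0.39), ATP3 (-0.37), ATP4 (-0.35), COX7 (-0.35), QCR10 (-0.60), QCR8 (-0.40) and RIP1 (-0.49). In YKH108 they were ATP7 (-0.37), QCR2 (-0.062), SDH1 (-0.34), ATP20 (-0.32), QCR10 (-0.27) and SDH3 (-0.25), and in YKH109 ATP7 (-0.45), SDH1 (-0.60), ATP20 (-0.56), ATP3 (-0.50), NDE1 (-0.65), QCR10 (-0.39), QCR8 (-0.50), RIP1 (-0.57), SDH3 (-0.43) and SDH4 (-0.051). The array medians given with the results show the size of that shift.

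With the identical column kept under both strains, 2 members were called in YKH100, 3 in YJS8 and 0 between temperatures. As YKH100 alone it gave 3 in YKH100 and 5 between temperatures, and as YJS8 alone, where QCR6 stood at 0.47 and was not called, 0 in YKH100, 3 in YJS8, 0 between temperatures and 50 over the pairs. YKH100 had 0 without the dye term, 0 with self arrays added and 0 with arrays of the same reference only, where YJS8 had 11 and the temperatures 5. The cause was not tested. With a series term added, all counts stayed within 1.5 times, 16 of 116 single calls no longer passed and 5 member medians moved by more than the spread between arrays, among them YJS9 to -0.15. Without the dye term 10 single calls no longer passed. Requiring a value on every array, no minimum number of arrays and robust eBayes left every count within 1.5 times. With 1 array of a group left out, the counts were 9 in YKH101, 1 to 7 in YJS7, 12 to 13 in YJS9, 1 to 2 in YKH104, 9 to 12 in YKH107, 8 in YKH108, 15 to 18 in YKH109, 1 to 2 between temperatures and 56 to 92 over the pairs, with fewer arrays in each. Over these fits 141 single calls were kept and 95 no longer passed, and none turned its sign. A group left with 1 array is assumed to vary like the others. No paired analysis was possible because replicate numbers mark the dye orientation, which the fit already holds as a term. Spot intensities were not analysed here, so signal over background is unknown.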

Other observations

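Across the members, Spearman's rho between gene length and fitted log2 ratio was 0.37 in YKH101, 0.36 in YJS8 and 0.34 in YKH109 (37 genes each), and 0.06, 0.09 and 0.04 over all tested genes. In YKH106 it was -0.24 over members and -0.21 over all genes. These are descriptions across genes, which share their arrays and are not independent replicates.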
